A study of Triticum aestivum with 4 samples.

Results

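Glutathione transferases attach the tripeptide glutathione to reactive or toxic compounds, or use it to reduce them, and plants carry large families of these enzymes. The tau class, found in plants and known for handling herbicides and stress products, conjugates glutathione to its substrates. The lambda class, also of plants, carries a cysteine in its active site and acts in the reduction of oxidised small molecules rather than in conjugation. In leaves, the transcripts of many tau and lambda enzymes are known to respond to drought, oxidants and herbicide safeners, the compounds that protect a crop from a herbicide.

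On the wheat array, 9 of the 61115 probe sets tested belong to 3 sequence clusters that the study's lists of changed transcripts match to glutathione transferases. A cluster of 6 probe sets, which holds Ta.28354.4.S1_at, and a cluster of 2, TaAffx.112045.1.S1_at and TaAffx.112045.1.S1_x_at, are matched to a rice glutathione S-transferase and to Arabidopsis ERD9, a tau class enzyme whose transcript is induced early in dehydration. The single probe set of the last cluster, Ta.116.1.S1_at, is matched to a rice IN2-1 protein and to Arabidopsis GSTL2, of the lambda class. IN2-1 was named in maize for its induction by herbicide safeners. The clusters were chosen by the difference between UD-2 and WT on these same 4 arrays, since 4 of the 9 probe sets stand in those lists. The other 5 belong to the 9 only because they share a cluster with Ta.28354.4.S1_at. The differences of all 9 are therefore given as a description, with no test.

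The 2 lines compared had 2 arrays each. UD-2 is CB037 wheat in the T2 generation that carries the maize transcription factor gene ZmDof1 behind the constitutive sugarcane promoter UBI4, together with an nptII selection cassette, and WT is CB037 without the construct. Flag leaves were taken at anthesis from plants raised next to each other in a greenhouse at 29°C by day and 24°C at night, with a 10/14 h photoperiod and normal water and fertilizer. The RNA on an array came from 3 plants, and the pools had no plant in common. UD-2 is a single transgenic event, so that an effect of ZmDof1 and an effect of this insertion cannot be told apart.

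Each value is a log2 signal, so that a difference of 1 is a doubling. No probe set is named for ZmDof1 in the annotation used here. Over all probe sets, which do not count as replicates, Pearson's r was 0.994 for the UD-2 pair of arrays, 0.994 for the WT pair, and from 0.984 to 0.991 when a UD-2 array was set against a WT array. The leaf markers PsbO and PsbP had a median signal over their 3 probe sets of 13.03 and 13.11 in UD-2 and of 13.38 and 13.29 in WT. All 3 differences were below 0, from −0.47 to −0.13. The paper reports reduced expression of photosystem II subunits in this event, so that these markers are not neutral between the lines. Of 17 probe sets for gliadins, glutenins and avenin-like proteins, which are stored in the grain, 13 were dimmer than the background level on each of the 4 arrays, and their median signal was 3.21 and 3.21 in UD-2 and 3.23 and 3.12 in WT. The brightest exception was Ta.27777.1.S1_at, annotated as an avenin-like protein, with 10.79 and 10.66 in UD-2 and 10.27 and 10.36 in WT. The others were Ta.160.2.S1_x_at, with 5.95 to 6.33 over the 4 arrays, Ta.15268.1.S1_x_at, with 4.74 to 4.89, and Ta.27777.1.S2_s_at, with 4.04 to 4.24. The 3 grain serpin probe sets had median signals of 3.03 and 3.18 in UD-2 and of 3.07 and 3.49 in WT. The brightest of them, Ta.119.1.S1_x_at, had 4.10 and 4.29 in UD-2 and 3.89 and 3.89 in WT. The background level is the 95th percentile of 42 control probe sets for Bacillus genes, which lay between 3.93 and 4.17 on the 4 arrays. Where both arrays of the lower line lie under it, the fold is computed against that level as a lower bound. On flag leaf RNA, fewer cells of a type and less RNA per cell cannot be told apart.

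In UD-2 flag leaves, the glutathione transferase probe sets went in opposite directions. Both probe sets of the 2-member ERD9-like cluster were under background in WT and well above it in UD-2, Ta.116.1.S1_at was 4.0-fold higher in UD-2, and Ta.28354.4.S1_at was 18.8-fold lower. The other 5 probe sets of its cluster had differences of −0.56 to 0.36 on the log2 scale. At an adjusted p under 0.05 from limma, 3 of the 9 were called higher and 1 lower, against 0.430% called higher, 0.281% called lower and 0.712% called in all among the probe sets tested. With each array centred on its median, the counts over all probe sets were 797 higher and 319 lower, in place of 263 higher and 172 lower. Both arrays of UD-2 lay on 1 side of both arrays of WT for 8 of the 9, against 48.1% of all probe sets. Because the clusters were selected on this difference, nothing is read from these counts.

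**Figure D1:**
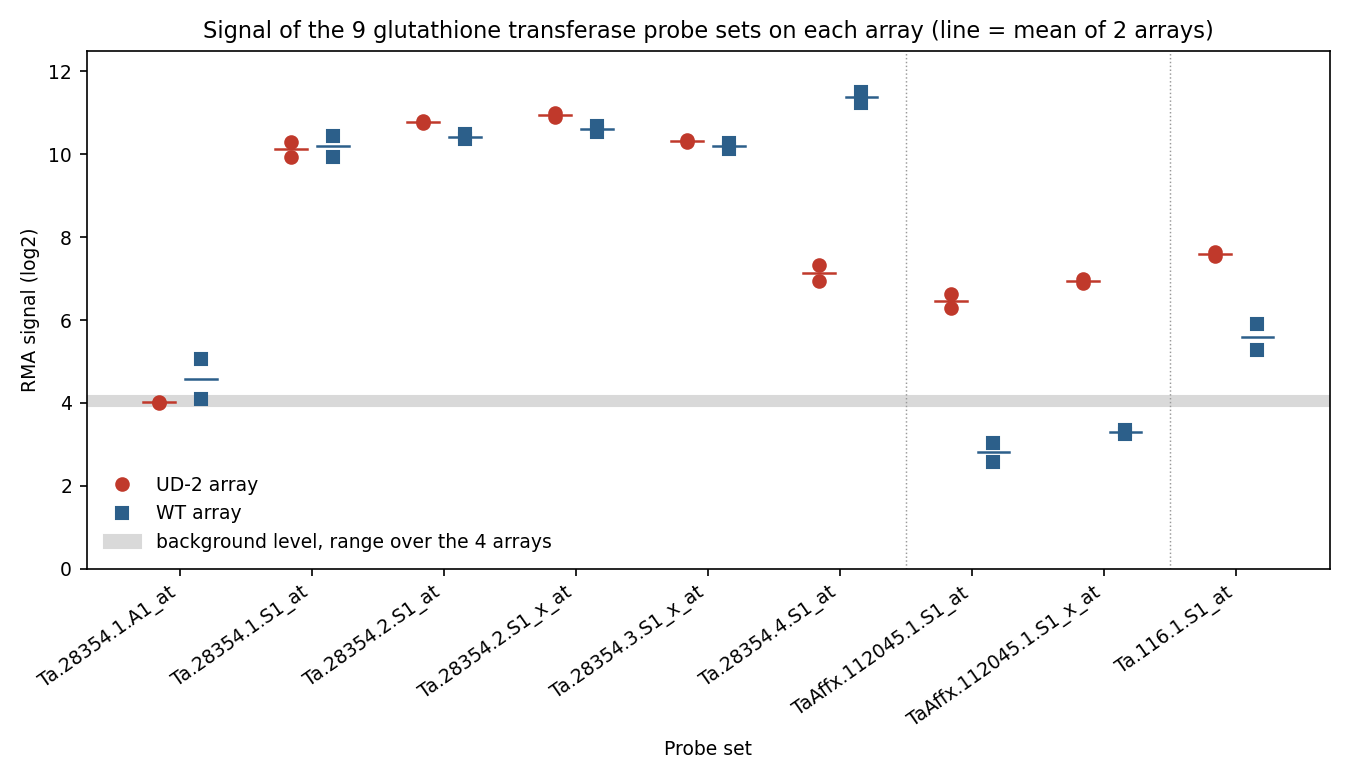
RMA signal on the log2 scale (vertical axis) of the 9 probe sets (horizontal axis) on each UD-2 array (circles) and each WT array (squares). Short lines are the means of 2 arrays, dotted lines part the clusters, and the grey band is the range of the background level. Ta.28354.4.S1_at is bright in WT and dimmer in UD-2, while both TaAffx.112045.1 probe sets lie under the band in WT only.

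Ta.28354.4.S1_at had log2 signals of 6.95 and 7.34 in the UD-2 pools, against 11.24 and 11.51 in the WT pools. Every UD-2 signal was thus far under every WT signal, and none of the 4 was near the background level. The mean was 7.14 ± 0.27 over the UD-2 pools and 11.38 ± 0.19 over the WT pools (SD, n = 2 each), a log2 difference of −4.23 with a standard error of 0.17. The 4 single differences between a UD-2 array and a WT array ran from −4.56 to −3.90.

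The remaining probe sets of the same cluster did not show this decrease. Ta.28354.2.S1_at had signals of 10.76 and 10.81 in the UD-2 pools, against 10.48 and 10.36 in the WT pools, a difference of 0.36 with a standard error of 0.11. Ta.28354.2.S1_x_at, which takes its name from the same sequence, had 10.89 and 10.99 in the UD-2 pools, against 10.68 and 10.54 in the WT pools, a difference of 0.33 with a standard error of 0.12. On both, each UD-2 pool was slightly brighter than each WT pool, opposite in sign to Ta.28354.4.S1_at. The ending _x_at marks a probe set with probes that can also bind other transcripts, so that this pair may in part read the same RNA. After each probe set was centred on its own mean, their profiles over the 4 arrays lay 0.04 apart as a Euclidean distance.

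Ta.28354.3.S1_x_at had 10.35 and 10.30 in the UD-2 pools, against 10.28 and 10.14 in the WT pools, a difference of 0.11 with a standard error of 0.12. The lines came within 0.01 of each other on a single pair of arrays. Ta.28354.1.S1_at is the only probe set of this cluster with a gene in the platform annotation, LOC542994. It had 9.93 and 10.31 in the UD-2 pools, against 10.45 and 9.94 in the WT pools, a difference of −0.08 with a standard error of 0.22. Here the lines overlapped, and its sign rests on single arrays, being 0.11 without UD-2 replicate 1 and 0.17 without WT replicate 1. Its gap between WT arrays, 0.50, was larger than that of 95.5% of all probe sets.

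Ta.28354.1.A1_at was the only dim probe set of the cluster, with 4.03 and 4.0 in the UD-2 pools, against 5.05 and 4.09 in the WT pools. Only WT replicate 1 stood clearly above the background level. The difference of −0.56 (standard error 0.31) was −0.07 without WT replicate 1 and −1.04 without WT replicate 2. Of the 9 probe sets it had the widest gap between WT arrays, at 0.96, while the UD-2 arrays differed by 0.02. The 4 bright unlisted probe sets of the cluster thus gave signals of 9.93 to 10.99 on every array and differences of −0.08 to 0.36, beside the −4.23 of Ta.28354.4.S1_at. By its name, Ta.28354.1.A1_at comes from the same sequence as Ta.28354.1.S1_at, but their centred profiles lay 0.65 apart. The probe sequences were not used here, so that the transcripts and the strand each probe set reads within the cluster were not compared.

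The other ERD9-like cluster was higher in UD-2 on both of its probe sets. TaAffx.112045.1.S1_x_at had log2 signals of 6.90 and 7.0 in the UD-2 pools, against 3.33 and 3.26 in the WT pools. TaAffx.112045.1.S1_at had 6.29 and 6.63 in the UD-2 pools, against 3.04 and 2.59 in the WT pools. All 4 WT signals lay under the background level and all 4 UD-2 signals above it, so that the WT level is known only as a bound. By the _x_at probe set the UD-2 level was at least 6.91-fold that of WT, and by the other at least 4.91-fold. Against the brightest Bacillus control on each array, these bounds were 5.30 and 3.77.

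The measured log2 differences of the pair were 3.65 (standard error 0.11) for TaAffx.112045.1.S1_x_at and 3.64 (standard error 0.20) for TaAffx.112045.1.S1_at. Since the WT signals behind them are under background, these values have no exact size beyond the bounds. The _x_at probe set was the more even of the pair, with gaps between arrays of 0.09 in UD-2 and 0.08 in WT. TaAffx.112045.1.S1_at had gaps of 0.34 in UD-2 and 0.46 in WT, beside median gaps over all probe sets of 0.15 in UD-2 and 0.14 in WT. Both names point to the same sequence, so that they are not independent measurements of this transcript.

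**Figure D2:**
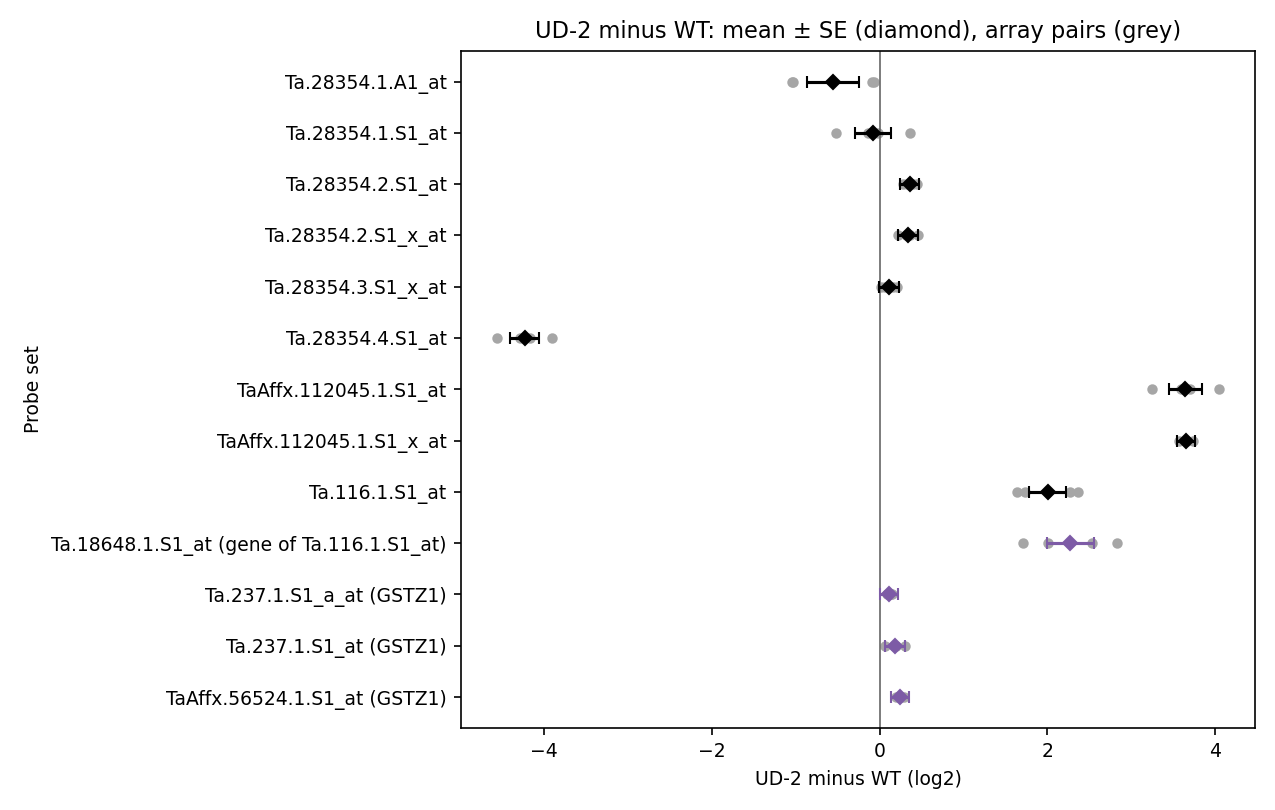
UD-2 minus WT on the log2 scale (horizontal axis) for the 9 probe sets (black) and 4 related ones (purple), with the mean difference and its standard error from limma (diamonds and bars, n = 2 arrays per line). Grey points are the 4 differences between single arrays. Only Ta.28354.4.S1_at lies far to the left, at −4.23, while the others of its cluster lie between −0.56 and 0.36.

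The lambda class match Ta.116.1.S1_at had log2 signals of 7.55 and 7.65 in the UD-2 pools, against 5.91 and 5.28 in the WT pools. Both UD-2 pools were brighter than both WT pools, and all 4 arrays lay above the background level. The mean was 7.60 ± 0.07 over the UD-2 pools and 5.60 ± 0.45 over the WT pools (SD, n = 2 each), a difference of 2.0 with a standard error of 0.22. The WT pools differed by 0.63, more than on 97.8% of all probe sets, and the UD-2 pools by 0.10. The difference was 2.32 without WT replicate 1 and 1.69 without WT replicate 2. The largest differences among the unlisted 5 were those of Ta.28354.1.A1_at, at −0.56, and Ta.28354.2.S1_at, at 0.36.

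The platform annotation gives Ta.116.1.S1_at the gene LOC543369, and 1 further probe set, Ta.18648.1.S1_at, has the same gene. Ta.18648.1.S1_at stands in neither list of the study. Those lists print only part of the transcripts that the study called, so that nothing is read from this absence. Its signals were 7.42 and 7.72 in the UD-2 pools, against 5.71 and 4.88 in the WT pools, a difference of 2.27 with a standard error of 0.28. As on Ta.116.1.S1_at, both UD-2 pools were brighter than both WT pools, and WT replicate 1 was brighter than WT replicate 2, here by 0.82. Its difference was called at an adjusted p under 0.05 from limma, but not with Benjamini-Hochberg adjustment or with the replicate number as a block. Ta.18648.1.S1_at was looked up for its shared gene and measured on the same pools, so that it adds no further plants. Whether both probe sets read the same transcript was not checked.

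**Figure D3:**
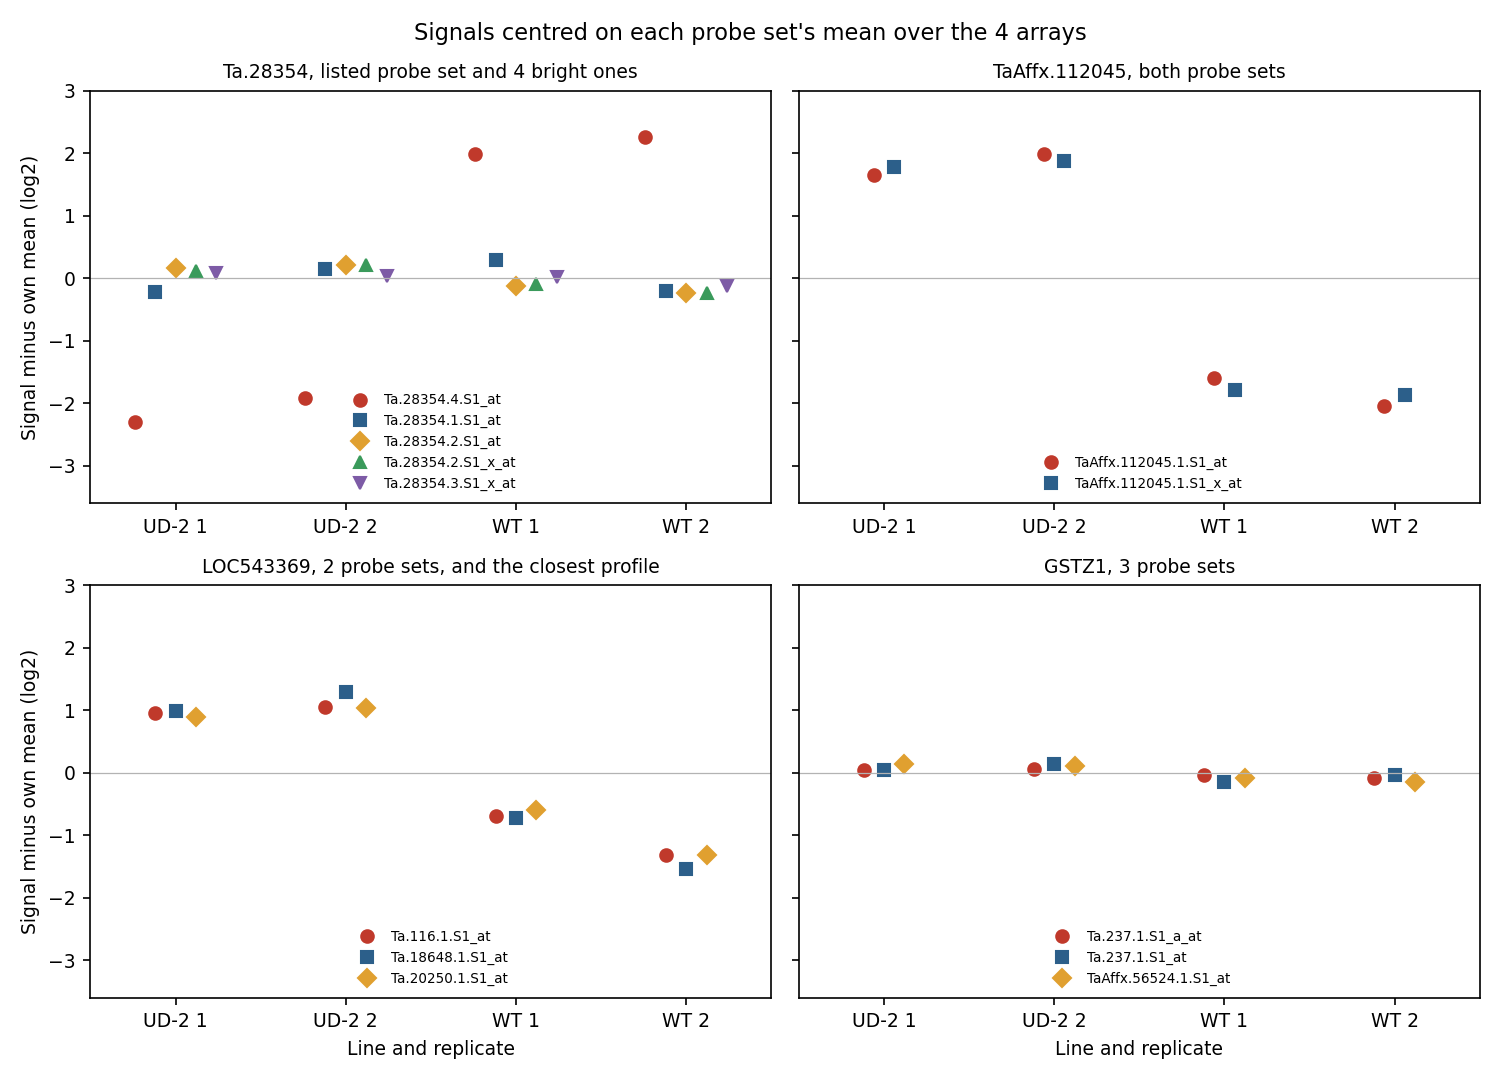
Log2 signal minus the probe set's own mean over the 4 arrays (vertical axis) for each array (horizontal axis), in 4 panels, with the markers of an array set side by side. Ta.28354.4.S1_at lies far from 0 on every array while the 4 bright probe sets of its cluster stay near 0, and Ta.116.1.S1_at and Ta.18648.1.S1_at lie close together on every array. The GSTZ1 probe sets stay near 0.

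A further glutathione transferase is named on the array, GSTZ1 (LOC543412), of the zeta class, which isomerises maleylacetoacetate in the breakdown of tyrosine. Its 3 probe sets were not chosen by their values. The annotation gives a gene for only 1273 of 61290 probe sets, and for 2 of the 9 described above. Other glutathione transferases on the array may therefore go unnamed, and GSTZ1 does not stand for them. Ta.237.1.S1_a_at had 11.27 and 11.29 in the UD-2 pools, against 11.19 and 11.13 in the WT pools. Ta.237.1.S1_at had 8.64 and 8.75 in the UD-2 pools, against 8.45 and 8.57 in the WT pools, and TaAffx.56524.1.S1_at had 10.84 and 10.80 in the UD-2 pools, against 10.61 and 10.55 in the WT pools. On all 3, the UD-2 arrays lay slightly above the WT arrays, by 0.12, 0.18 and 0.24 on the log2 scale, as the lines lay apart on 48.1% of all probe sets. None was called over all probe sets (adjusted p = 0.442, 0.336 and 0.234 from limma), and 0 had an unadjusted p under 0.05, against 17.1% of all probe sets tested. The 95% intervals of the differences ran from −0.15 to 0.38, from −0.11 to 0.47 and from −0.03 to 0.51, and each included 0. The 3 probe sets read 1 gene and are not independent members.

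**Figure D4:**
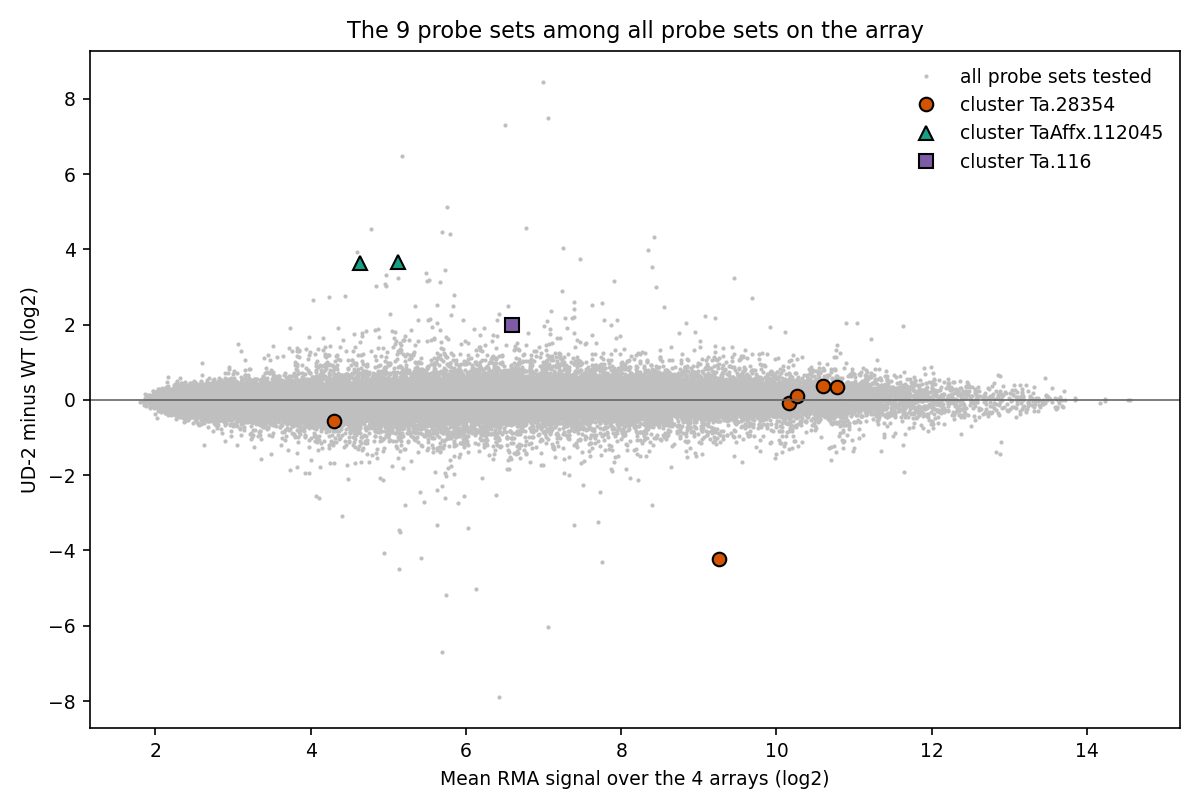
UD-2 minus WT on the log2 scale (vertical axis) against the mean signal over the 4 arrays (horizontal axis) for all 61115 probe sets tested (grey points), with the 9 glutathione transferase probe sets marked by cluster. Both TaAffx.112045.1 probe sets lie at 3.64 and 3.65, with WT signals under background, and Ta.28354.4.S1_at at −4.23, apart from the bulk of points, while the others of its cluster lie within it.

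Of other genes that use glutathione or remove oxidants, the annotation names 6, read by 12 probe sets, of which 0 were called in either direction by limma and 4 had an unadjusted p under 0.05, against 17.1% of all probe sets tested. These genes were picked from the annotation by name. Their median difference was −0.23, beside −0.02 over all probe sets tested. The 12 probe sets read 6 genes and are not independent members, so that no shared direction is read from them. For lgul, which encodes lactoylglutathione lyase, the enzyme that uses glutathione to detoxify methylglyoxal, Ta.28068.1.S1_at had 7.83 and 8.74 in the UD-2 pools, against 9.43 and 8.90 in the WT pools. Its difference was −0.88 with a standard error of 0.33, and the UD-2 arrays were 0.91 apart, so that the spread within UD-2 was about as wide as the difference. The other lgul probe set, Ta.8554.1.S1_at, had 9.20 and 9.52 in the UD-2 pools, against 9.39 and 9.49 in the WT pools, and the lines overlapped on it.

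PCS1, the phytochelatin synthase that builds metal-binding peptides from glutathione, had 6.48 and 6.25 in the UD-2 pools, against 6.59 and 6.63 in the WT pools, on Ta.232.1.S1_at. The lines did not overlap there, with a difference of −0.25 (standard error 0.13). All 4 probe sets of Prx1 lay below 0, from −0.50 on Ta.6572.1.S1_a_at to −0.22 on Ta.6572.1.S1_at, and so did both probe sets annotated PER1, at −0.36 and −0.04. Both PER1 probe sets had signals of 3.85 to 4.46, about the background level, with 1 array under it on each. CAT1, a catalase that breaks down hydrogen peroxide, had 13.40 and 13.23 in the UD-2 pools, against 13.26 and 13.41 in the WT pools, on Ta.442.1.S1_at. The lines overlapped on this probe set, and also on that of Trx-M, a chloroplast thioredoxin, with 13.0 and 13.23 in the UD-2 pools, against 13.06 and 13.17 in the WT pools on Ta.136.1.S1_at. The annotation gave no probe set for glutathione synthesis, glutathione reductase, sulfur assimilation or cytochrome P450 enzymes under the names searched. No statement on those steps can be made here.

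The probe sets whose profiles were most like the 4 listed ones were found by Euclidean distance between log2 signals centred on each probe set's mean, over the 4 arrays and with the same cluster left out. Nearest to Ta.28354.4.S1_at was TaAffx.12662.1.S1_at, which the study's lists match to phosphoenolpyruvate carboxylase, the enzyme that fixes bicarbonate onto phosphoenolpyruvate, at a distance of 0.40 and a difference between lines of −4.31. The paper also saw this decrease by quantitative PCR. It also found higher activity of this enzyme in transgenic wheat, and more RNA from another wheat sequence for it in UD-2. TaAffx.12662.1.S1_at was followed by TaAffx.120564.1.A1_at at 0.42 and Ta.19312.1.S1_at at 0.55, neither of which has a described function in the sources used here. Both had UD-2 signals under the background level, of 2.71 and 3.08 for TaAffx.120564.1.A1_at and of 3.04 and 2.78 for Ta.19312.1.S1_at, so that their distances have no exact size. The same holds for all distances to the TaAffx.112045.1 probe sets, whose WT signals of 2.59 to 3.33 lay under it. With that limit, Ta.13630.1.A1_at was nearest to both TaAffx.112045.1 probe sets, at 0.27 from TaAffx.112045.1.S1_at and 0.30 from TaAffx.112045.1.S1_x_at, while the pair itself lay 0.32 apart.

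Ta.22285.1.A1_at was also among the 3 nearest to each TaAffx.112045.1 probe set, at 0.51 and 0.34. Ta.8991.1.S1_at, matched in the study's lists to an aldose 1-epimerase, which interconverts forms of sugars, lay at 0.51 from TaAffx.112045.1.S1_at, and TaAffx.73741.1.S1_at at 0.32 from TaAffx.112045.1.S1_x_at. Nearest to Ta.116.1.S1_at were Ta.20250.1.S1_at at 0.11, with 8.18 and 8.32 in the UD-2 pools against 6.70 and 5.98 in the WT pools, and Ta.7926.1.A1_at at 0.27. The 3rd nearest of all probe sets was Ta.18648.1.S1_at, at 0.33, the other probe set of the same gene. With 4 arrays in 2 lines, probe sets with a like difference between lines lie close together by this measure, whatever their function.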

How the data were processed

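RNA pools from flag leaves of 2 UD-2 and 2 WT samples, each of 3 plants, had been hybridised to GeneChip wheat arrays. Robust multiarray average (RMA) of the Affy package was used by the authors for background correction, normalization and probe summary, and they deposited 1 log2 value per probe set and array. R 3.1.1 and limma stand in the submitters' processing notes. The chip definition file and the Affy version are not given in the sources used here. RMA brings the arrays to a like distribution, so that a shift shared by all transcripts would not be seen. The array medians of the deposited values still differed, at 4.54 and 4.53 in UD-2 and 4.60 and 4.58 in WT. Precision is limited by the number of arrays.

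Of 61290 probe sets, 175 controls were left out. UD-2 was compared with WT by lmFit and eBayes of limma 3.58.1 (R 4.3.3) on all 61115, without covariates, and two-sided p-values were adjusted as the study's methods name, after Storey and Tibshirani (lambda of 0.05 to 0.95 in steps of 0.05, spline of 3 degrees of freedom, estimated share of unchanged probe sets 0.708), with a threshold of 0.05. The study reported fewer calls in each direction than the 263 higher and 172 lower found here, for a reason that was not tested. The shares called are therefore those of this fit. The fit was tested on simulated data. Figures were drawn with Python 3.11.15 and matplotlib 3.10.9.

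The 3 clusters, the gene lists and the tests were chosen with earlier results of these data known, and the 6 redox and glutathione-using genes and the gliadin, glutenin and avenin-like genes after the annotation had been read. All 9 probe sets are named, as are the 3 nearest profiles of each listed probe set. Genes come from the platform annotation, which gives 1 gene for 1273 probe sets, several for 0 and none for 60017. For 1272 of the annotated probe sets, the gene was found by ID in the RefSeq table of assembly IWGSC CS RefSeq v2.1. Of the 9 probe sets, 2 have a gene. Enzyme matches are the study's, to rice and Arabidopsis. Probe sequences and genome positions were not used here.

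The alternatives were Benjamini-Hochberg adjustment, robust eBayes, an intensity trend, a filter on dim probe sets, keeping controls, quantile, median and cyclic loess normalization, a replicate block, leaving out each array, and another background level.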

Additional observations from a re-analysis of the deposited data

How the results depend on the processing

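The differences of the 9 probe sets, Ta.18648.1.S1_at and the 3 GSTZ1 probe sets were recomputed under 13 alternatives, of which 6 change only the test and leave each difference as it was. Of the 91 values under the other 7, 2 changed sign, both of Ta.28354.1.S1_at with an array left out. Under the 3 other normalizations, the difference of Ta.28354.4.S1_at ran from −4.30 to −4.18, that of TaAffx.112045.1.S1_x_at reached 3.71, that of TaAffx.112045.1.S1_at 3.70, Ta.116.1.S1_at kept between 1.97 and 2.06, and Ta.18648.1.S1_at between 2.25 and 2.33. No GSTZ1 probe set was called in any alternative.

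Over all probe sets, the calls were 142 higher and 98 lower with Benjamini-Hochberg adjustment, 512 and 325 with robust eBayes, 779 and 491 with dim probe sets left out, 400 and 285 with quantile normalization, and 797 and 319 after median centring. Cyclic loess normalization gave 376 and 279. With the replicate block, 16 were higher and 11 lower, and of the 9 probe sets 1 was called higher and 1 lower. The labels do not say that a replicate number marks a shared pool or batch. The gap between replicates 1 and 2 correlated at −0.09 across probe sets between the lines. This single value cannot show whether samples with the same number shared a batch.

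With any 1 array left out, 1 line rests on 1 array, assumed to vary like the other line, and limma made 0 calls, both over all probe sets and among the 9, while 5114 to 8779 probe sets had an unadjusted p under 0.05. The difference then ran from −4.42 to −4.04 for Ta.28354.4.S1_at, from 3.42 to 3.87 for TaAffx.112045.1.S1_at and from 3.60 to 3.70 for TaAffx.112045.1.S1_x_at. Background limits the WT signals of both TaAffx.112045.1 probe sets. On Ta.28354.1.A1_at, WT replicate 2 lay under the background level and both UD-2 signals only just above it.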
